A study of Mus musculus with 8 samples.

Results

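Extracellular nucleotides and adenosine are read by a set of surface receptors and trimmed by a surface enzyme. In bone marrow-derived macrophages (BMDM) exposed to bilirubin, 10 genes of that system were followed. They were listed by symbol, and the choice was made with earlier results of these data known. All 10 were found among the 53819 gene rows of the expression table. They were *P2rx4* and *P2rx7*, which encode ion channels opened by ATP, *P2ry6*, *P2ry12*, *P2ry13* and *P2ry14*, which encode G protein-coupled receptors for nucleotides, *Entpd1*, which encodes the ectonucleotidase CD39, and *Adora2a*, *Adora2b* and *Adora3*, which encode adenosine receptors. RNA came from 8 cultures, a vehicle and a bilirubin culture from each of 4 female Balb/cJ mice aged 8 weeks, so that each bilirubin culture had its own control from the same animal. Marrow was differentiated for 5 days with 25 ng/mL M-CSF, which both groups received, and then held for 48 h with 2.5 µM bilirubin, the end product of heme breakdown, or with the solvent DMSO alone (vehicle). Each mouse gave 1 culture per treatment, and such macrophages are a culture model made from marrow, not cells taken from a tissue.

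ATP and other nucleotides leave stressed or dying cells and act as danger signals for macrophages. The ATP-gated channels let cations in, and the channel encoded by *P2rx7* is the classical trigger of the NLRP3 inflammasome, which matures IL-1β. CD39 removes phosphates from ATP and ADP to leave AMP, a further enzyme, CD73, turns AMP into adenosine, and adenosine receptors that raise cyclic AMP are known to restrain inflammatory cytokine release in macrophages.

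Libraries held 34142781 to 47071714 counts assigned to genes. Values are given as CPM (counts scaled to a common library size with edgeR's TMM factors), and as TPM (Salmon's abundance per transcript length) where genes are compared with each other. A gene was called when its p-value was under 0.05 after Benjamini-Hochberg adjustment over all 13722 tested genes, from edgeR's quasi-likelihood test in a model that held mouse and treatment. All 9 macrophage markers were detected, with a summed level of 24024 to 24277 CPM in vehicle and 28300 to 30323 CPM in bilirubin cultures. Most of that sum was *Lyz2*, which averaged 19145 CPM in vehicle and 24369 CPM in bilirubin cultures. By edgeR 3 of the 9 rose and 0 fell, while 4.49% of all tested genes were called higher and 3.04% lower. Of the 9, 6 had negative fold changes, and DESeq2 also called *Cd68* lower (-0.16, adjusted p = 0.0269). The part of these markers in the results was not tested. The summed level was at most 0.775 CPM for megakaryocyte and platelet, 0.747 for mast cell and basophil, 0.597 for dendritic cell, 0.547 for B cell, 0.124 for erythroid and 0.0795 for T and NK cell markers, and *Cd3g* and *Fcer1a* had 0 counts in all libraries. Higher sums were found for neutrophil (127 to 175 CPM), endothelial (9.88 to 18.5 CPM) and stromal (2.24 to 7.98 CPM) markers, with overlapping ranges between the groups. The neutrophil sum was nearly all *Mmp8*, the other 5 markers staying under 1 CPM and *Ly6g* at no more than 3 counts, and the endothelial sum was mostly *Kdr*. In bulk RNA, fewer cells of a type and less RNA per cell cannot be told apart.

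One animal stood apart from the others for several of these genes and has to be named before the results. Mouse 1 alone moved opposite to the other mice for 4 of the 10 genes (*P2ry12*, *P2ry13*, *Entpd1* and *Adora3*), which was the case for 18.06% of all tested genes. Without mouse 1, 1910 genes were called instead of 1033. Both ends of the depth range came from mouse 1, with 47071714 counts in its vehicle and 34142781 in its bilirubin library. The part of depth in the departures of this animal was not tested. Values without this animal are therefore given beside each result that rests on it. Mouse 1 was singled out from these same values, so a smaller p-value without it is not independent support for a change.

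Of the 10 genes, all of which were tested, 4 were called. *P2rx4*, *Adora2a* and *Adora2b* rose with bilirubin and *P2ry6* fell, while 7.53% of all tested genes were called, 4.49% higher and 3.04% lower. The 10 were chosen with earlier results of these data known, so their share of calls is not an independent result. DESeq2, limma-voom and limma-trend called the same 4 of the 10. Levels did not overlap between vehicle and bilirubin cultures for 2 of the 10 (*P2rx4* and *Adora2a*), against 10.6% of all tested genes. *Adora2a* passed the filter on low counts only through its bilirubin cultures. The same 4 called genes moved in the same direction in all 4 mice, as did 28.36% of tested genes. The median log2 fold change of the 10 was 0.02, and that of all tested genes was -0.00. The remaining 6 genes did not pass the test, although 2 of them, *P2ry14* and *Entpd1*, had unadjusted p-values of 0.0189 and 0.0251.

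**Figure D1:**
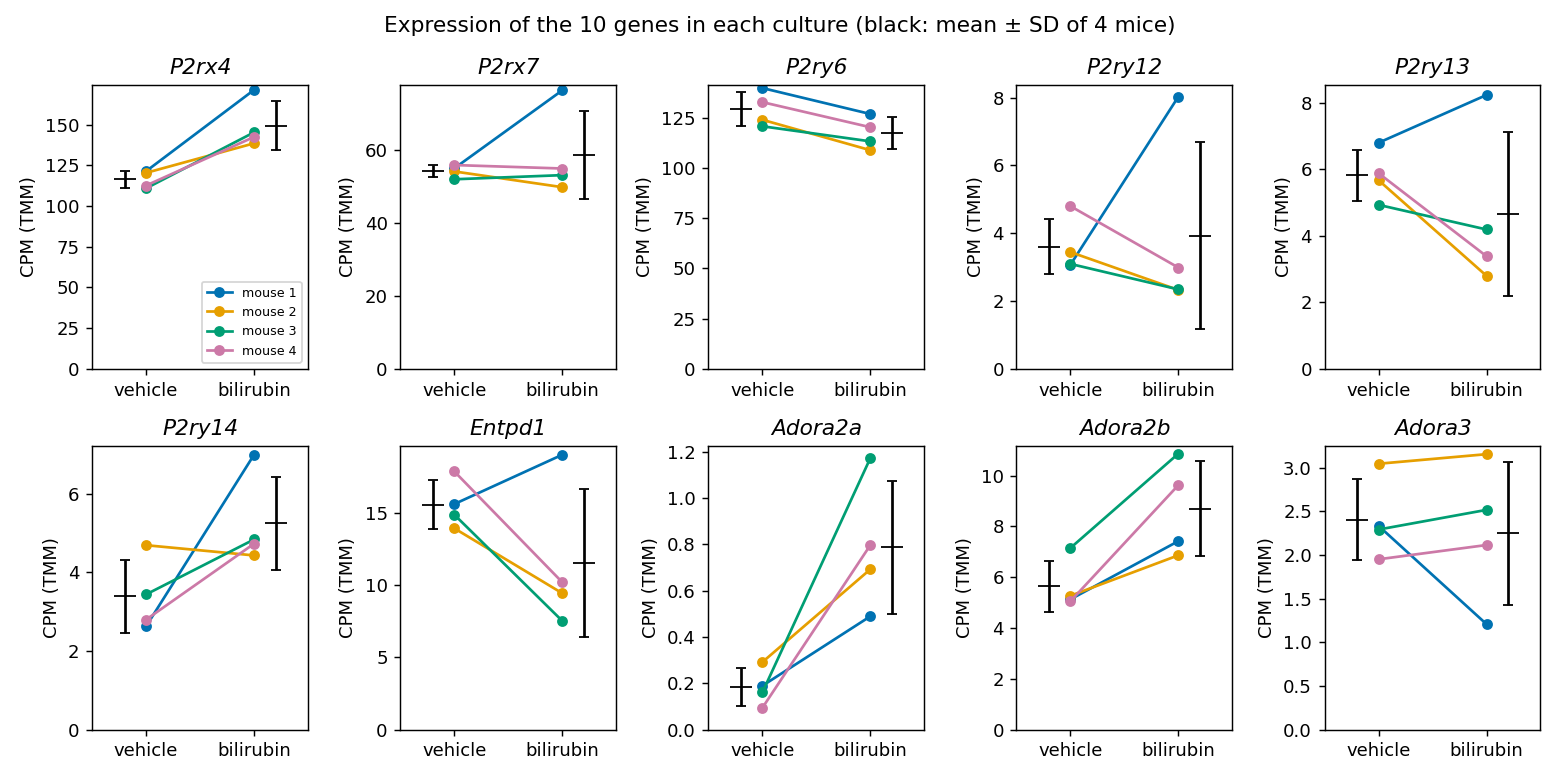
Level of each of the 10 genes in CPM (y axis, from 0) in the vehicle and the bilirubin culture of each mouse (colored lines), with the mean and SD of 4 cultures in black. All 4 *P2rx4* lines rise, from 111 to 121 CPM up to 139 to 171 CPM, whereas mouse 1 (blue) departs from the other mice in *P2ry12*, *P2ry13*, *Entpd1* and *Adora3*.

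Promoter sequence is shown for the called genes *P2rx4* and *Adora2b* and for *P2ry14*, whose transcripts began in different places. *Adora2a* and *P2ry6* were called as well but had no RefSeq window. RefSeq held windows for 8 of the 10 genes, 13 in all, and each window was placed by an exact match on GRCm39. The 250 bases before each RefSeq start were searched on both strands for 6 motifs, with each match in capitals, and the bases are printed up to the outermost start of the coding transcripts nearby. These motifs were the cAMP response core TGACG (in 17.77% of 32841 promoters of this length), the kappa B letters GGNNTTTCC (4.93%), the interferon-stimulated response letters GAANNGAAA (6.31%), the hypoxia response core ACGTG (16.57%), the AP-1 letters TGANTCA (6.75%, which read alike on both strands, so that 1 site counts on each) and the PU.1 letters GAGGAAG (10.61%).
*P2rx4*, chr5:122845357-122845540, plus strand: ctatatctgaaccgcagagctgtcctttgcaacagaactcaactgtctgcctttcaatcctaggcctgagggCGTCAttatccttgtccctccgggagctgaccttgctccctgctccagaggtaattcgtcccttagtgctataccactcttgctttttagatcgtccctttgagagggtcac
*Adora2b*, chr11:62139560-62139803, plus strand: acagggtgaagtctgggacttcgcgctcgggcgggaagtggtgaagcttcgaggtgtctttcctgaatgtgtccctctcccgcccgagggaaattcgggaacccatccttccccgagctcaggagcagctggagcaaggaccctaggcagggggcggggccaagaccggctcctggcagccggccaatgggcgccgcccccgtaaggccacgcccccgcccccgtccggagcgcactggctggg
The *P2rx4* stretch holds a cAMP response core on the minus strand, 178 bases before the RefSeq start, and the unprinted rest of that window holds another, 57 bases before it. No match to the 6 motifs was found in the *Adora2b* window, which says only that these letters are not in it. A match describes the letters and not a bound factor.

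*P2rx4* (ENSMUSG00000029470, chr5:122845541-122867803, plus strand, GRCm39) was measured at 121, 120, 111 and 113 CPM in the vehicle cultures of mice 1 to 4 and at 171, 139, 145 and 142 CPM in their bilirubin cultures. The lowest bilirubin culture lay above the highest vehicle culture, and the log2 differences were 0.50, 0.20, 0.39 and 0.34. The mean rose from 116 ± 5.34 to 149 ± 14.9 CPM (SD, n = 4), a log2 fold change of 0.36 (SE 0.05, adjusted p = 0.00317, edgeR's quasi-likelihood test). *P2rx4* was called under all 13 alternative analyses, with adjusted p between 1.02e-09 and 0.0448. Its main transcript, ENSMUST00000081554, held 60.6% of the gene's TPM in each group. ENSMUST00000198560, annotated for nonsense-mediated decay, was at 14.3 ± 1.63 TPM in vehicle and 24.6 ± 3.56 TPM in bilirubin cultures (SD, n = 4). Every bilirubin culture lay above every vehicle culture, and the mean share of this transcript went from 11.2% to 15.5%. Part of the *P2rx4* rise was thus assigned to it, by Salmon's estimate and without a test.

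*P2rx7* (ENSMUSG00000029468, chr5:122781942-122830400, plus strand) lies 15140 bases from *P2rx4* on the same strand. Its vehicle cultures held 55.0, 54.1, 52.0 and 55.9 CPM and its bilirubin cultures 76.4, 49.8, 53.1 and 54.9 CPM. The bilirubin culture of mouse 1 was the single high value, and the ranges overlapped. The log2 fold change was 0.09 (SE 0.09, adjusted p = 0.630 by edgeR) and became -0.04 without mouse 1, so no direction can be given. The leading transcript ENSMUST00000100737 held 76.0% of *P2rx7* TPM in vehicle and 70.7% in bilirubin cultures.

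Among the nucleotide-sensing G protein-coupled receptors, *P2ry6* (ENSMUSG00000048779, chr7:100585308-100624173, minus strand), whose product responds to UDP and is known for its part in phagocytosis by microglia, was measured at 140, 124, 121 and 133 CPM in vehicle and 127, 109, 113 and 120 CPM in bilirubin cultures. The group ranges overlapped, but within each mouse the bilirubin culture was the lower. The log2 differences were -0.14, -0.19, -0.09 and -0.14, with an SD of 0.0389, and only 5.83% of tested genes had a smaller SD between mice. *P2ry6* fell by 0.14 on the log2 scale (SE 0.03, adjusted p = 0.0434, edgeR's quasi-likelihood test), from 129 ± 8.63 to 117 ± 7.92 CPM (SD, n = 4). The call was lost without mouse 2, 3 or 4 (adjusted p = 0.184, 0.141 and 0.205), with treatment alone in the model (0.269) and with an offset for transcript length (0.0923), and it held under the other 8 alternatives.

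**Figure D2:**
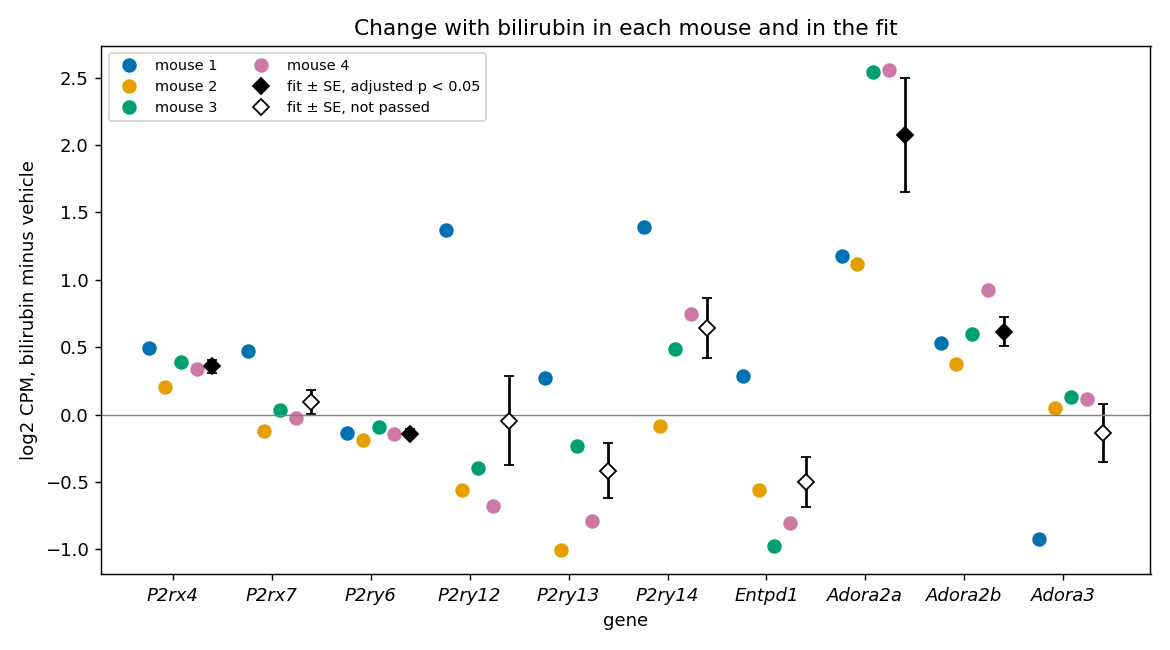
Log2 CPM in bilirubin minus vehicle (y axis) for each of the 10 genes (x axis) in each mouse (colored points) and in the fit to all mice (diamonds with SE, filled where adjusted p was under 0.05). The 4 *P2ry6* points lie between -0.19 and -0.09, and those of *P2ry12* spread from -0.67 to 1.37.

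*P2ry12*, *P2ry13* and *P2ry14* sit side by side on chromosome 3, all on the minus strand, with gaps of 5377 and 53404 bases. *P2ry12* and *P2ry13* encode receptors for ADP, and *P2ry14* encodes the receptor for UDP-glucose and related sugars. All of them lie within the span of *Med12l*, which is read from the opposite strand. *Med12l* shares 294 exon bases with *P2ry12* and 0 with the other two, and whether strand was used in the counting is not given in the sources used here. *Med12l* itself was at 0.369 ± 0.214 CPM in vehicle and 0.378 ± 0.390 CPM in bilirubin cultures (SD, n = 4).

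*P2ry12* (ENSMUSG00000036353, chr3:59123682-59170429), known as the platelet ADP receptor and as a gene of microglia, was at 3.07, 3.44, 3.09 and 4.80 CPM in vehicle and at 8.03, 2.33, 2.34 and 2.99 CPM in bilirubin cultures. The bilirubin culture of mouse 1 held more than any other culture, while the other mice were lower with bilirubin than without. These values rested on 84 to 279 counts per library. Over all mice the log2 fold change was -0.05 (SE 0.33, adjusted p = 0.965 by edgeR), and without mouse 1 it was -0.56 (adjusted p = 0.0416). Without mouse 2, 3 or 4 the gene did not pass (adjusted p = 0.922, 0.963 and 0.888 by edgeR). Megakaryocyte and platelet markers stayed under 1 CPM in sum, with *Gp1bb* at 0 counts in all libraries. Among 7 markers of microglia or tissue-resident macrophages, *Cx3cr1* fell by 1.02 on the log2 scale (adjusted p = 5.00e-05) and *Fcrls* fell by 1.68 (0.0372), *Tmem119* rose by 0.41 (0.0410), and *Sall1* and *Siglech* had at most 1 count. The summed level of the 7 was 401 to 460 CPM in vehicle and 265 to 301 CPM in bilirubin cultures, and its part in the *P2ry12* result was not tested. The transcripts of *P2ry12* begin in 3 regions, and Salmon's split between them varied widely between cultures, from 18.3% to 78.4% of the gene's TPM in vehicle cultures for the most upstream start (59170429). The *Fcrls* and *Tmem119* calls were lost without mouse 2, 3 or 4 and with the length offset (adjusted p between 0.0769 and 0.227), and that of *Fcrls* also with limma-voom (0.112) and with treatment alone in the model (0.310), while *Cx3cr1* was called under all 13 alternatives. *Fcrls* set mouse 1 apart as well, with a log2 difference of -0.10 there and -2.50, -2.28 and -2.26 in mice 2 to 4, and its fitted change without mouse 1 was -2.39.

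*P2ry13* (ENSMUSG00000036362, chr3:59114539-59118304) was at 6.79, 5.67, 4.93 and 5.88 CPM in vehicle and 8.23, 2.80, 4.19 and 3.38 CPM in bilirubin cultures. Mouse 1 was again the one that was higher with bilirubin, and libraries held 101 to 323 counts of the gene. The log2 fold change over all mice was -0.42 (SE 0.21, adjusted p = 0.305 by edgeR), and without mouse 1 it was -0.67 (adjusted p = 0.0192). Without mouse 2, 3 or 4 the gene did not pass (adjusted p = 0.650, 0.473 and 0.649 by edgeR).

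*P2ry14* (ENSMUSG00000036381, chr3:59021276-59061134) was at 2.63, 4.69, 3.44 and 2.80 CPM in vehicle and 6.99, 4.43, 4.84 and 4.73 CPM in bilirubin cultures. Mice 1, 3 and 4 were higher with bilirubin and mouse 2 was slightly lower, and the ranges overlapped, at 119 to 243 counts per library. With a log2 fold change of 0.64 (SE 0.22, adjusted p = 0.139 by edgeR) the gene did not pass the test. Without mouse 1 the fold change was 0.38 (adjusted p = 0.195).

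The transcripts of *P2ry14* begin in 2 separate regions, and Salmon's estimates for them behaved differently between the groups. Transcripts of the upstream region (2 deposited, starting at 59060913 and 59061039) were at 0.0435, 2.17, 2.08 and 1.97 TPM in vehicle and 4.52, 3.62, 3.27 and 3.09 TPM in bilirubin cultures. Every bilirubin culture lay above every vehicle culture, with means of 1.57 ± 1.02 and 3.62 ± 0.635 TPM (SD, n = 4). Transcripts of the downstream region (7 deposited, starting from 59038043 to 59039883) were at 2.26, 2.40, 1.32 and 0.915 TPM in vehicle and 2.78, 0.760, 1.47 and 1.34 TPM in bilirubin cultures, which overlapped. The leading upstream transcript ENSMUST00000196081 took 0.0%, 46.5%, 60.7% and 68.3% of the gene's TPM in mice 1 to 4 with vehicle and 61.9%, 82.4%, 68.6% and 69.7% with bilirubin, so that mouse 4 differed little and the widest gap came from mouse 1. Without mouse 1 the upstream TPM still did not overlap between the groups. These values were singled out after they were seen and carry no test, and Salmon divides reads between overlapping transcripts by estimation. The sequences below precede the upstream and the downstream starts, and are shown because the estimates for these starts differed.
*P2ry14* upstream, chr3:59061135-59061384, minus strand: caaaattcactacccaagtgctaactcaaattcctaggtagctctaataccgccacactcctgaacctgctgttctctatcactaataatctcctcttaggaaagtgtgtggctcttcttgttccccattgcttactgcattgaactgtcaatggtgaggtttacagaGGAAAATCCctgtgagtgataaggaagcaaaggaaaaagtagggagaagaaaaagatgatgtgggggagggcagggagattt
*P2ry14* downstream, chr3:59038750-59038999, minus strand: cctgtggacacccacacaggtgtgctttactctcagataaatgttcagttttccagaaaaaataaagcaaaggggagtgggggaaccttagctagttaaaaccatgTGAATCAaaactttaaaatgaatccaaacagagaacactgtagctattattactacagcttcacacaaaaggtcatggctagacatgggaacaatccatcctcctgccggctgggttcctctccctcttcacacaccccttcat
The upstream stretch was read from GRCm39 before the outermost annotated start, 221 bases beyond that of ENSMUST00000196081. Such an extra stretch was read for *P2ry14* only, and no quantified transcript begins at the outermost start. It holds a match to the kappa B letters on the strand opposite to the transcript, 82 bases before the outermost start. The RefSeq window directly before the leading start, which is not printed, held no kappa B match. In that window lay an AP-1 match (TGACTCA) 202 bases and a PU.1 match 21 bases upstream. The downstream stretch precedes the RefSeq start at 59038749 and holds an AP-1 match (TGAATCA) 144 bases before it, and the unprinted window before another downstream RefSeq start, 59038183, holds a kappa B match (GGACTTTCC) 103 bases upstream.

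**Figure D3:**
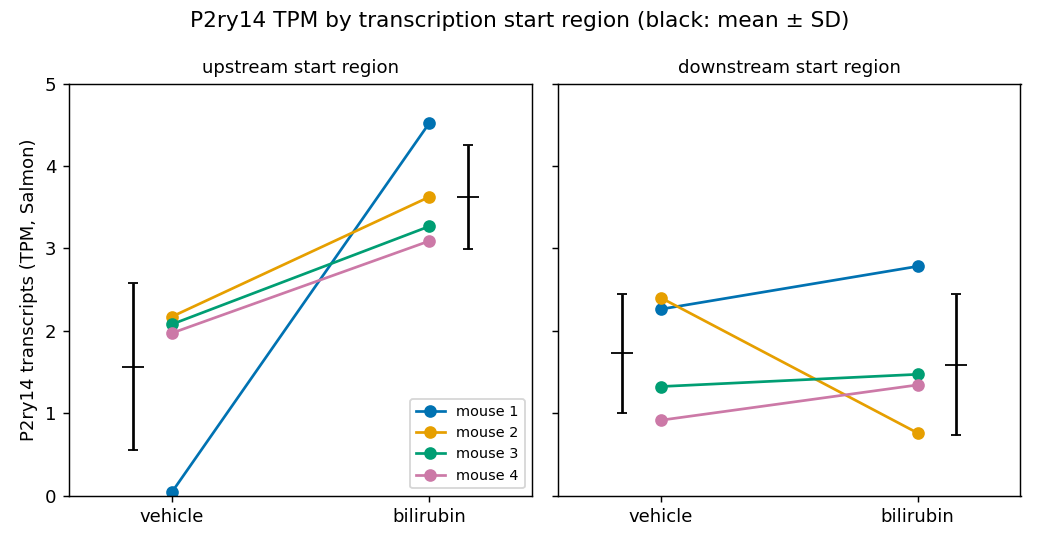
Summed TPM of *P2ry14* transcripts (y axis, from 0) that begin in the upstream (left) or downstream (right) region, in the vehicle and bilirubin culture of each mouse (colored lines), with mean and SD in black. Upstream values are 3.09 to 4.52 TPM with bilirubin and at most 2.17 TPM with vehicle, and downstream values overlap.

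The ectonucleotidase gene *Entpd1* (ENSMUSG00000048120, chr19:40600810-40731585, plus strand) was at 15.6, 13.9, 14.9 and 17.9 CPM in vehicle and 19.0, 9.44, 7.53 and 10.2 CPM in bilirubin cultures. Bilirubin cultures of mice 2 to 4 lay below every vehicle culture, and that of mouse 1 lay above all of them, with log2 differences of 0.28, -0.56, -0.98 and -0.81 in mice 1 to 4. The log2 fold change was -0.50 (SE 0.18, adjusted p = 0.164 by edgeR) with all mice and -0.79 (adjusted p = 1.38e-04) without mouse 1. Without mouse 2, 3 or 4 the gene did not pass (adjusted p = 0.354, 0.508 and 0.464 by edgeR). Besides the fit without mouse 1, *Entpd1* was called when no filter on low counts was used (adjusted p = 6.73e-05). Transcripts from its most upstream starts (40600810 to 40600841) were at 4.48 ± 0.547 TPM in vehicle and 2.91 ± 1.18 TPM in bilirubin cultures, and those from the next starts (40648214 to 40648937) at 4.49 ± 0.761 and 3.85 ± 2.22 TPM (SD, n = 4). *Nt5e*, which encodes CD73 and was added for its place after CD39 once its values had been seen, was at 1.66 ± 0.283 CPM in vehicle and 2.37 ± 0.774 CPM in bilirubin cultures (log2 fold change 0.48, adjusted p = 0.211 by edgeR).

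Among the adenosine receptors, *Adora2a* (ENSMUSG00000020178, chr10:75152560-75170628, plus strand), whose product couples to adenylyl cyclase, was the least abundant of the 10 genes by TPM. It had 9, 11, 7 and 4 counts in vehicle and 17, 25, 47 and 32 counts in bilirubin cultures, or 0.189, 0.291, 0.160 and 0.0941 CPM against 0.489, 0.692, 1.17 and 0.796 CPM. The groups did not overlap, although at such counts sampling error is a large part of each value. Most vehicle counts fell under the low-count filter (about 10 counts), so *Adora2a* entered the test only through its bilirubin cultures. A gene let in this way is more likely to look higher with bilirubin. *Adora2a* rose from 0.184 ± 0.0821 to 0.787 ± 0.286 CPM (SD, n = 4), a log2 fold change of 2.07 (SE 0.42, adjusted p = 0.0222, edgeR's quasi-likelihood test). Its call was lost without mouse 3 (log2 fold change 1.80, adjusted p = 0.170) or mouse 4 (1.82, adjusted p = 0.126), the mice with the lowest vehicle counts.

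*Adora2b* (ENSMUSG00000018500, chr11:62139804-62157279, plus strand), which encodes the low-affinity adenosine receptor that also raises cyclic AMP, was at 5.13, 5.27, 7.15 and 5.06 CPM in vehicle and 7.42, 6.87, 10.9 and 9.63 CPM in bilirubin cultures. Each mouse was higher with bilirubin, by 0.53, 0.38, 0.60 and 0.92 on the log2 scale, while the vehicle culture of mouse 3 stood above the other controls and reached into the bilirubin range. *Adora2b* rose by 0.61 on the log2 scale (SE 0.11, adjusted p = 0.0118, edgeR's quasi-likelihood test), with means of 5.65 ± 1.00 and 8.70 ± 1.88 CPM (SD, n = 4). The call was lost without mouse 3 (adjusted p = 0.103) or mouse 4 (0.0746) and with treatment alone in the model (0.0545).

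*Adora3* (ENSMUSG00000000562, chr3:105778174-105816242, plus strand), whose product lowers cyclic AMP, was at 2.33, 3.05, 2.29 and 1.95 CPM in vehicle and 1.21, 3.16, 2.52 and 2.12 CPM in bilirubin cultures. The bilirubin culture of mouse 1 was the lowest, at 42 counts, and the other mice differed by 0.05 to 0.13 on the log2 scale. The log2 fold change was -0.14 (SE 0.22, adjusted p = 0.790 by edgeR) and turned to 0.10 without mouse 1. *Adora3* shares exon sequence on its own strand with *Tmigd3* (154 bases) and *Gm53046* (670 bases), so its counts are uncertain, and *Tmigd3* itself had 0 to 11 counts.

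**Figure D4:**
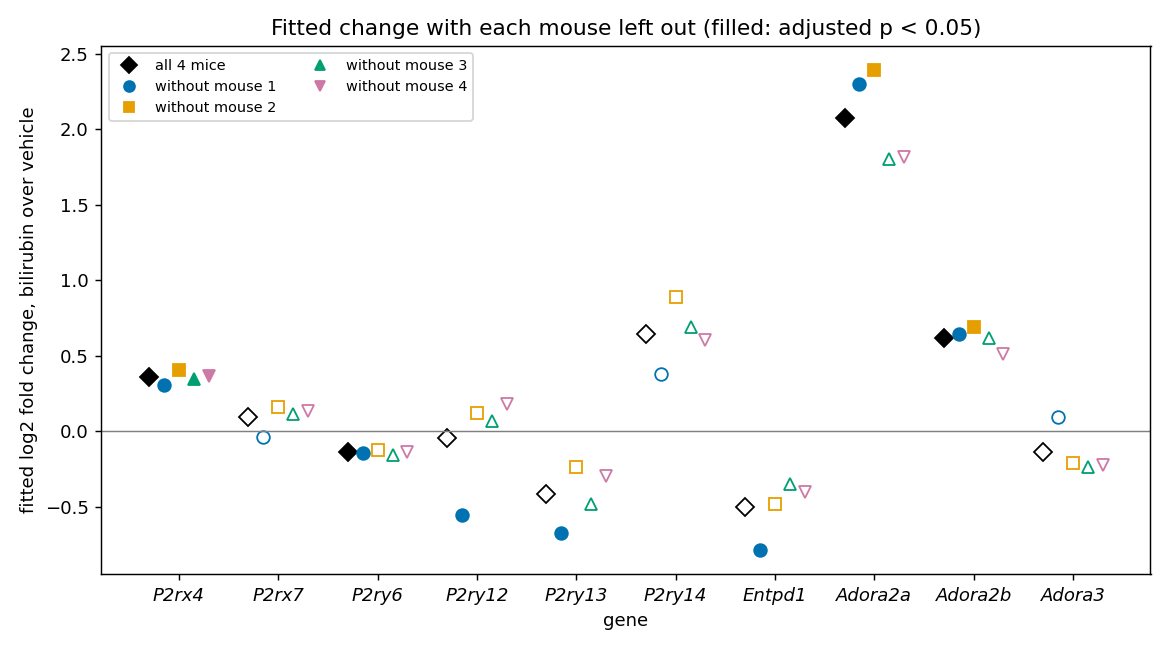
Fitted log2 fold change, bilirubin over vehicle (y axis), of each gene (x axis) with all 4 mice (diamonds) and with each mouse left out (other symbols), filled where adjusted p was under 0.05. *P2rx4* is filled throughout, and *P2ry12*, *P2ry13* and *Entpd1* are filled only where mouse 1 (blue) is left out.

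Per transcript length, *P2rx4* (127 ± 8.57 TPM) and *P2ry6* (115 ± 8.97 TPM) led the 10 genes in vehicle cultures, and their ranges overlapped. *P2rx7* followed at 22.4 ± 2.93 TPM, *Entpd1* at 9.37 ± 1.19 TPM and *Adora2b* at 5.25 ± 0.903 TPM, each apart from its neighbors in the order. *P2ry13* (3.84 ± 0.542 TPM), *P2ry12* (3.37 ± 0.752 TPM) and *P2ry14* (3.29 ± 0.966 TPM) overlapped, above *Adora3* (1.98 ± 0.277 TPM) and *Adora2a* (0.118 ± 0.0523 TPM; SD, n = 4). In bilirubin cultures *Adora2b* (7.82 TPM) stood above *Entpd1* (6.85 TPM) in mean level, and *P2ry14* (5.21 TPM) above *P2ry13* (3.02 TPM) and *P2ry12* (2.96 TPM). Mice varied least in their response for *P2ry6* (SD of the log2 differences 0.0389) and most for *P2ry12* (0.964), against a median of 0.139 over all tested genes.

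The other genes of the pathway were grouped by function. Of 11 further genes with P2 or adenosine receptor symbols, 5 were tested and 0 were called by edgeR, DESeq2, limma-voom or limma-trend. In edgeR 1 of them had an unadjusted p under 0.05, as did 20.8% of all tested genes. The list's median log2 fold change was -0.10. *P2ry2*, which encodes a receptor for ATP and UTP and lies 16475 bases from *P2ry6*, was the most abundant of these by TPM, at 40.3 ± 2.12 CPM in vehicle and 37.8 ± 3.89 CPM in bilirubin cultures (adjusted p = 0.370 by edgeR). *P2rx2* and *Adora1* had 0 counts in all libraries, so that no transcript of the remaining adenosine receptor gene was counted.

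Among 14 other genes listed as nucleotide-hydrolysing enzymes, 9 were tested, 2 rose and 1 fell (median 0.07). Of all tested genes 7.53% were called. *Enpp1*, which encodes an enzyme that releases pyrophosphate from ATP, fell by 0.72 on the log2 scale (SE 0.07, adjusted p = 6.74e-04, edgeR's quasi-likelihood test), from 37.4 ± 2.50 to 22.8 ± 2.69 CPM. *Bst1*, an NAD-consuming surface enzyme, rose by 0.56 (SE 0.07, adjusted p = 0.00185) from 72.3 ± 3.18 to 107 ± 12.4 CPM. *Cd38*, which encodes a related enzyme, rose by 2.20 (SE 0.49, adjusted p = 0.0320), from 8, 6, 2 and 3 counts in vehicle to 18, 17, 32 and 12 counts in bilirubin cultures. All vehicle counts of *Cd38* fell under the low-count filter, so *Cd38* entered the test only through its bilirubin cultures. A gene let in this way is more likely to look higher with bilirubin. The *Cd38* call also rests on few counts. It was lost without mouse 2, 3 or 4 and with the length offset, with adjusted p between 0.0657 and 0.161. *Enpp1* and *Bst1* were called under all 13 alternatives.

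Of 8 genes of nucleotide release, 7 were tested and 0 were called by edgeR or DESeq2, 3 of them with an unadjusted p under 0.05 in edgeR, against 20.8% of all tested genes. limma-voom and limma-trend each called 1, *Ano6*, which encodes a lipid scramblase and was named after its values were seen (208 ± 5.99 CPM in vehicle and 226 ± 4.42 CPM in bilirubin cultures, adjusted p = 0.0606 by edgeR). *Panx1*, the pannexin channel through which ATP leaves cells, was at 49.5 ± 3.56 CPM in vehicle and 56.2 ± 7.28 CPM in bilirubin cultures (log2 fold change 0.18, adjusted p = 0.122 by edgeR), and passed without mouse 1 (0.24, adjusted p = 0.00492). Of 12 genes of adenosine uptake and conversion, 9 were tested and 1 was called, against 7.53% of all tested genes. That gene, *Ampd3*, which encodes an AMP deaminase, rose from 62.8 ± 1.71 to 89.0 ± 8.44 CPM (log2 fold change 0.50, SE 0.05, adjusted p = 0.00101). *Slc29a1*, an equilibrative nucleoside transporter gene, did not pass (log2 fold change 0.10, adjusted p = 0.254).

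Downstream of the G protein-coupled members, 14 of 17 listed genes were tested, and 1 rose and 1 fell by edgeR (median -0.00). Of all tested genes 7.53% were called. DESeq2 called 2 lower, *Pde4a* and also *Gnas*, which was named after its values were seen. *Gnas* was at 714 ± 26.6 CPM in vehicle and 648 ± 43.8 CPM in bilirubin cultures (log2 fold change -0.14, adjusted p = 0.0963 by edgeR). *Pde4b*, which encodes a phosphodiesterase that breaks down cyclic AMP, rose from 5.36 ± 0.334 to 13.01 ± 2.35 CPM (log2 fold change 1.27, SE 0.10, adjusted p = 2.75e-04, edgeR's quasi-likelihood test). *Pde4a*, of the same family, fell by 0.26 (SE 0.05, adjusted p = 0.0244), from 26.9 ± 2.06 to 22.5 ± 1.19 CPM, a call that was lost without mouse 2, 3 or 4 and with the length offset (adjusted p between 0.0650 and 0.168). *Gnai2*, the most abundant of these genes by TPM, was at 1114 ± 6.87 CPM in vehicle and 1151 ± 52.7 CPM in bilirubin cultures (adjusted p = 0.516).

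All 8 inflammasome genes listed below *P2rx7* were tested, and 3 rose and 0 fell (median 0.10), while 7.53% of all tested genes were called. *Il1b*, the gene of the cytokine that the inflammasome matures, rose from 0.803 ± 0.353 to 5.91 ± 3.50 CPM (log2 fold change 2.80, SE 0.28, adjusted p = 7.11e-04, edgeR's quasi-likelihood test). *Nlrp3*, the sensor, rose from 47.3 ± 2.82 to 62.8 ± 10.3 CPM (log2 fold change 0.40, SE 0.07, adjusted p = 0.0126). *Gsdmd*, which encodes the pore-forming gasdermin D, rose from 48.4 ± 2.76 to 58.2 ± 5.56 CPM (log2 fold change 0.26, SE 0.06, adjusted p = 0.0393). The *Nlrp3* and *Gsdmd* calls were lost without mouse 3 or 4, with adjusted p between 0.0700 and 0.241. *Gsdmd* also lost its call with library size alone (0.0698), with the length offset (0.106) and with treatment alone in the model (0.0525), whereas *Il1b* was called under all 13 alternatives. *Txnip*, the most abundant of the list by TPM, did not pass (log2 fold change -0.03, adjusted p = 0.708).

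Genes next to the 10 on the chromosome were listed as well, and 1 of the 7 tested was called, against 7.53% of all tested genes. *Camkk2*, a kinase gene in the neighborhood of *P2rx4*, rose from 80.5 ± 1.07 to 94.3 ± 7.84 CPM (log2 fold change 0.22, SE 0.05, adjusted p = 0.0375, edgeR's quasi-likelihood test), and lost its call without mouse 3 or 4 (adjusted p = 0.214 and 0.180), with library size alone (0.0777) and with the length offset (0.366). *Anapc5*, from the same neighborhood, had a log2 fold change of 0.01 (adjusted p = 0.890).

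**Figure D5:**
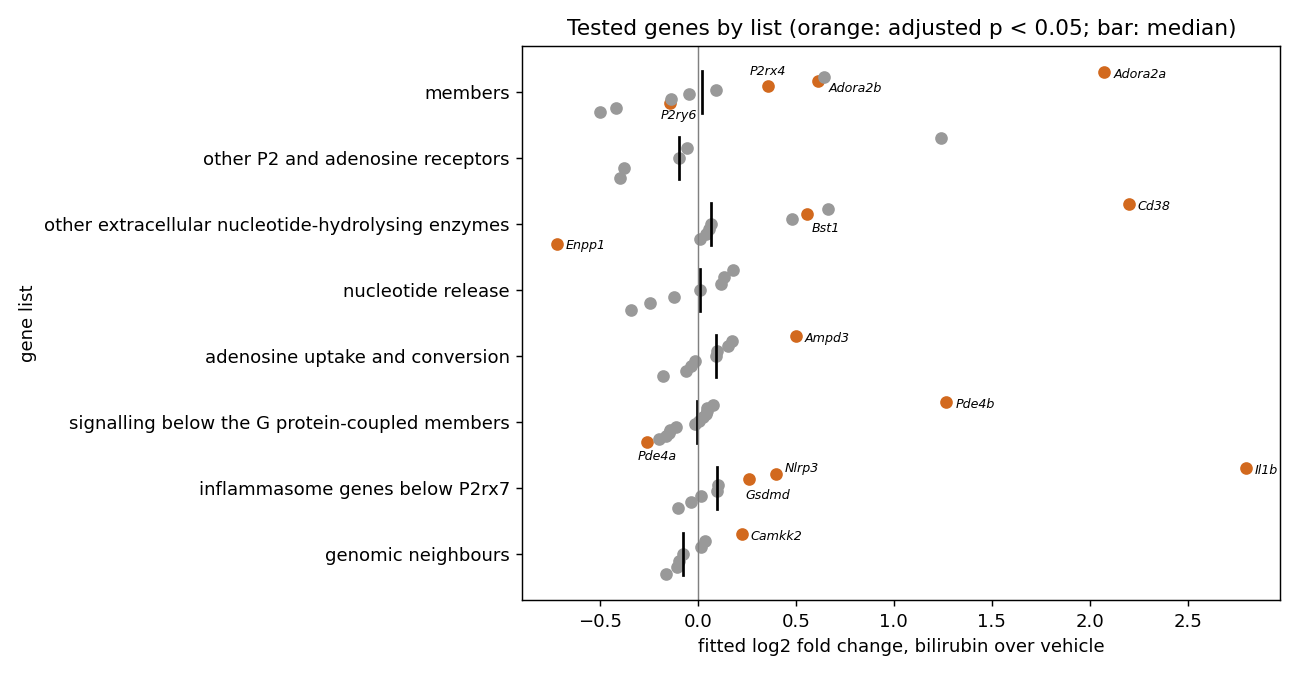
Fitted log2 fold change, bilirubin over vehicle (x axis), of each tested gene by list (y axis), orange and named where adjusted p was under 0.05, with a black bar at each list's median. List medians lie between -0.10 and 0.10, and the named points reach from -0.72 (*Enpp1*) to 2.80 (*Il1b*).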

How the data were processed

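Poly A-selected RNA of 8 BMDM cultures was sequenced. Per the labels and methods, the authors used bcl2fastq 2.20.0.422, Trim Galore 0.6.7 with cutadapt 3.4, STAR 2.7.9a and Salmon 1.10.1 on GRCm39 (and R 4.2.2). Files deposited by the authors held estimated (expected) counts from Salmon per gene, not normalized, plus estimated counts and TPM per transcript and library. The deposited gene table equaled the transcript sums (largest difference 2.33e-10), and 88.5% of its values were whole. Salmon's sharing of reads can move counts between overlapping genes.

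Counts were rounded and fitted in R 4.3.3 with edgeR 4.0.16 (TMM, filterByExpr, mouse and treatment, quasi-likelihood test, Benjamini-Hochberg, threshold 0.05). The filter asked for 15 counts in total and a CPM equal to 10 counts at the median depth. That CPM was needed in as many libraries as the smaller group held. Libraries of either group could meet it, so a gene could enter through a single group. Log2 CPM of single cultures used a prior count of 2. Cultures were paired by mouse because the labels name the mouse pair. The correlation of deviations from the group means was 0.108, 0.134, 0.108 and -0.01 within mice 1 to 4, and the highest between different mice was 0.0751. Alternatives used limma 3.58.1 and DESeq2 1.42.0, other scaling, filters and a length offset, and left out each mouse. On simulated data with known changes, the share of false calls exceeded the threshold.

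Depth was 34142781 to 47071714 counts per library, and p-values measure the spread between 4 mice with 1 culture per treatment. The members and gene lists were chosen with earlier results of these data known. The text names all 10 members, every tested gene of the other non-marker lists that passed, and the gene of highest vehicle TPM in each list. It also names the protein-coding genes that overlap a member. Overlapping genes of other types, found at *P2rx4*, *P2rx7*, *P2ry6*, *P2ry14* and *Entpd1*, were not named. Single markers, *Nt5e*, *Ano6* and *Gnas* were named after their values were seen. Promoter windows came from RefSeq (GRCm38.p6) for the members other than *Adora2a* and *P2ry6*. Positions and overlaps came from GENCODE M39. Raw reads were not analysed here, and results of some marker genes are not reported here.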

Additional observations from a re-analysis of the deposited data

Results flagged for a closer look

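For each of the 10 genes, the vehicle values, the bilirubin values and the mouse differences were checked for a culture far from the other 3, by the gap of the highest or lowest value to its neighbor as a share of the whole range, with a critical value of 0.829 for 4 samples. Of these 30 sets, 5 passed, and chance alone passes about 1 in 20. The bilirubin culture of mouse 1 was far above the others for *P2ry12* (share 0.884) and *P2ry14* (0.841). The log2 difference of mouse 1 stood apart for *P2ry12* (0.863), where it was high, and for *Adora3* (0.922), where it was low. For *Adora2b* the vehicle culture of mouse 3 was far above the others (0.897). The sets share libraries and are not independent, and the cause was not tested.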

How the results depend on the processing

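The counts of called genes and the fitted fold changes of the named genes were recomputed under 13 alternatives, or 12 for *Adora2a*, *Cd38* and *Med12l*, which a filter of CPM above 1 in 4 libraries removed. Transcript levels and marker sums were not recomputed, and *Gnas* was compared only between edgeR, DESeq2, limma-voom and limma-trend. Of the members' values, 106 kept their direction and side of the threshold, 10 lost the call, 6 gained it and 7 reversed, and of the other named genes' values 271, 29, 8 and 2 did so. The count of genes called was 1033 and became 1692 with no filter, 579 with the transcript length offset, 686 without the replicate block (no pairing by mouse), and 377 to 1910 when a mouse was left out. The count of members called was 4 and became 7 with no filter, 2 without the replicate block, and 1 to 7 when a mouse was left out. Without the block the calls of *Adora2b* (adjusted p = 0.0545) and *P2ry6* (0.269) were lost, as were those of *Gsdmd* (0.0525) and *Fcrls* (0.310), and no other call among the recomputed genes changed. With library size alone, calls split into 527 higher and 556 lower genes instead of 616 and 417.

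Reversals concerned values that had not passed the test. *P2ry12* turned to 0.12 without the replicate block and to 0.10 with limma-voom, and ranged from -0.56 to 0.18 when a mouse was left out. When a mouse was left out, *P2rx7* ranged from -0.039 to 0.161, *Adora3* from -0.238 to 0.097 and *Anapc5* from -0.025 to 0.044, and *Anapc5* was -0.012 with library size alone. The cause of these changes was not tested. *P2rx4* kept its call throughout. By CPM, which ignores length, *P2ry6* ranked 1 and *P2rx4* 2, and *P2ry13* 5 and *Adora2b* 6. Depth limits *Adora2a* and *Cd38*, with 4 to 11 and 2 to 8 counts per vehicle library.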
